A study of Mus musculus with 4 samples.

Results

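The genes described here are 8 long noncoding RNA genes of mouse liver, namely Malat1, Neat1, Kcnq1ot1, Meg3, Gas5, Snhg1, Snhg8 and Snhg12, out of the 48709 genes counted in each library. They were taken by symbol, 4 as RNAs that remain in the nucleus and 4 as host genes of small nucleolar RNAs (snoRNAs). Malat1 and Neat1 were the reason for the set, since both were lower in DDI2-KO liver. Their genotype difference is therefore given as a description, with no test. The other 6 were added for their class, to ask whether RNAs of host genes, which are exported to the cytoplasm, were lower as well. All 8 passed the filter on low counts, which kept 13699 genes.

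MALAT1 collects in nuclear speckles, where splicing factors are stored, and NEAT1 is the scaffold of paraspeckles, nuclear bodies that hold back some RNAs and RNA-binding proteins. Kcnq1ot1 and Meg3 come from imprinted domains, in which the copy from only 1 parent is transcribed, and Kcnq1ot1 acts on chromatin in its own domain. The snoRNA host genes carry snoRNAs in their introns. Their spliced exons code for no known protein, are exported, engage ribosomes and are broken down by nonsense-mediated decay, and many begin with a pyrimidine tract like that of ribosomal protein mRNAs (5′TOP). DDI2 is an aspartic protease that cuts and so activates the transcription factor NRF1.

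Liver RNA of untreated adult C57BL/6 mice was sequenced as 4 mRNA libraries, 2 from WT mice and 2 from mice with the genotype label DDI2-/-, called DDI2-KO by the study. By the study's methods, controls were littermates with floxed Ddi2 alleles and no Cre, and DDI2-KO mice carried the same alleles with Cre driven by the albumin promoter. Deletion is thus limited to cells that have used that promoter, and the other liver cells keep Ddi2. The sex of each mouse is not given in the labels.

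Between 22501208 and 34109018 reads per library fell on genes, both WT libraries being the deeper. Before any scaling, 3 reads corresponded to 0.0880 to 0.133 per 1000000 of these reads. Levels are given as CPM, the read count divided by the library total scaled by TMM, per 1000000. TMM is a factor that levels most genes between libraries. Ddi2 itself had 4749 and 3812 reads in WT against 4068 and 3777 in DDI2-KO, or 141 and 123 CPM against 157 and 164 CPM. Both DDI2-KO libraries thus lay above both WT libraries (log2 fold change 0.28, standard error 0.17, edgeR adjusted p = 0.349), the direction opposite to a loss of the transcript. A count over the whole gene does not separate the floxed part from the rest and so checks neither label. DDI2-KO stands for the label throughout. Reads on no annotated exon came to 5.11 and 4.70 per 100 reads on genes in WT, and to 2.53 and 3.65 in DDI2-KO. The 7 hepatocyte markers in the files (Alb, Apoa1, Apoa2, Ttr, Fgb, Hnf4a and Serpina1a) summed to 164097 to 187276 CPM in WT and 153644 to 156498 CPM in DDI2-KO. In bulk liver, fewer cells of a type and less RNA per cell cannot be told apart, and with 2 libraries per group a p-value measures only the spread between these samples.

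Malat1 (ENSMUSG00000092341) lies on chromosome 19 of GRCm38, from 5795690 to 5802672 on the minus strand, and its longest annotated transcript is 1 exon of 6983 bases. Neat1 (ENSMUSG00000092274) lies on the same strand, from 5824708 to 5845478, with 1 exon of 20771 bases in its longest form. The mature 3′ ends of Malat1 and of this long form of Neat1 are not made by the usual cleavage and polyadenylation. They are made by RNase P, which cuts ahead of a tRNA-like fold. Neat1 has 4 annotated transcripts, and its reads were not divided among them. The U-rich and A-rich stretches just before the cut fold back on each other to protect the end. These stretches are shown because mRNA libraries are primed or selected on runs of A, which these RNAs carry in their own sequence. Capitals mark the A-rich motif AAAAAGCAAAA, the last 11 bases of the annotated Neat1 transcript, and the U-rich motif TTTTNCTTTT, which pairs with it and in which N is any base, both read on the transcript strand of GRCm38.
Malat1, bases 6606 to 6696 of the transcript, chr19:5795977-5796067, minus strand: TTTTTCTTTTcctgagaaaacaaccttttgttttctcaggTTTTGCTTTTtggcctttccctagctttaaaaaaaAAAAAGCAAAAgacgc
Neat1, bases 20719 to 20771 of the transcript, chr19:5824708-5824760, minus strand: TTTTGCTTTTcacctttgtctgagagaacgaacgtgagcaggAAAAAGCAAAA
Over the last 400 bases of the longest transcript of 43368 annotated genes, 65 genes (0.15%) held AAAAAGCAAAA and 960 (2.21%) held TTTTNCTTTT, searched on the transcript strand. Neat1 ended at its A-rich motif, while the annotated Malat1 transcript ran 292 bases beyond it.

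Both nuclear-body RNAs were lower in DDI2-KO, Malat1 at 40.8% and Neat1 at 29.2% of their mean WT level. Malat1 had 1894 and 1843 reads in WT against 522 and 625 in DDI2-KO, or 56.3 and 59.7 CPM against 20.2 and 27.2 CPM. The WT libraries were close together (58.0 ± 2.35 CPM, SD, n = 2), and both lay above both DDI2-KO libraries (23.7 ± 4.97 CPM, SD, n = 2). The log2 fold change (log2 FC, DDI2-KO minus WT) of Malat1 was -1.29 with a standard error of 0.19, and it stayed between -1.51 and -1.09 when each library was left out in turn.

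Neat1 had 5411 and 3148 reads in WT against 749 and 1100 in DDI2-KO. On the CPM scale the values were 161 and 102 in WT against 28.9 and 47.9 in DDI2-KO, so the groups did not overlap, although the WT libraries differed from each other by 1.58 times. The log2 FC of Neat1 was -1.78 with a standard error of 0.31 (131 ± 41.8 against 38.4 ± 13.4 CPM, SD, n = 2 per group), and -2.17 to -1.41 with libraries left out. Per kilobase of exon, the WT level was 8.30 CPM for Malat1 and 6.33 CPM for Neat1, a difference smaller than the spread of Neat1 between WT libraries. In DDI2-KO these levels were 3.39 and 1.85 CPM per kilobase.

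Neat1 varied more than Malat1 within each genotype. There were 2.86 and 1.71 Neat1 reads for each Malat1 read in WT against 1.43 and 1.76 in DDI2-KO, so this ratio overlapped between genotypes. The libraries stood in the same order by Neat1 and by the share of reads on no annotated exon, with WT replicate 1 highest and DDI2-KO replicate 1 lowest, and the part of that share in these results was not tested. Reads mapped to more than 1 place came to 65.8 per 100 reads on genes in WT replicate 1 against 51.8 in WT replicate 2 and 49.2 and 47.3 in DDI2-KO, and the part of this difference was not tested either. Among the 13699 genes tested, 1.25% had a lower log2 FC than Neat1 and 2.88% a lower one than Malat1. Both genes were chosen for being lower in DDI2-KO, so these low ranks follow from the choice and are only a description.

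**Figure D1:**
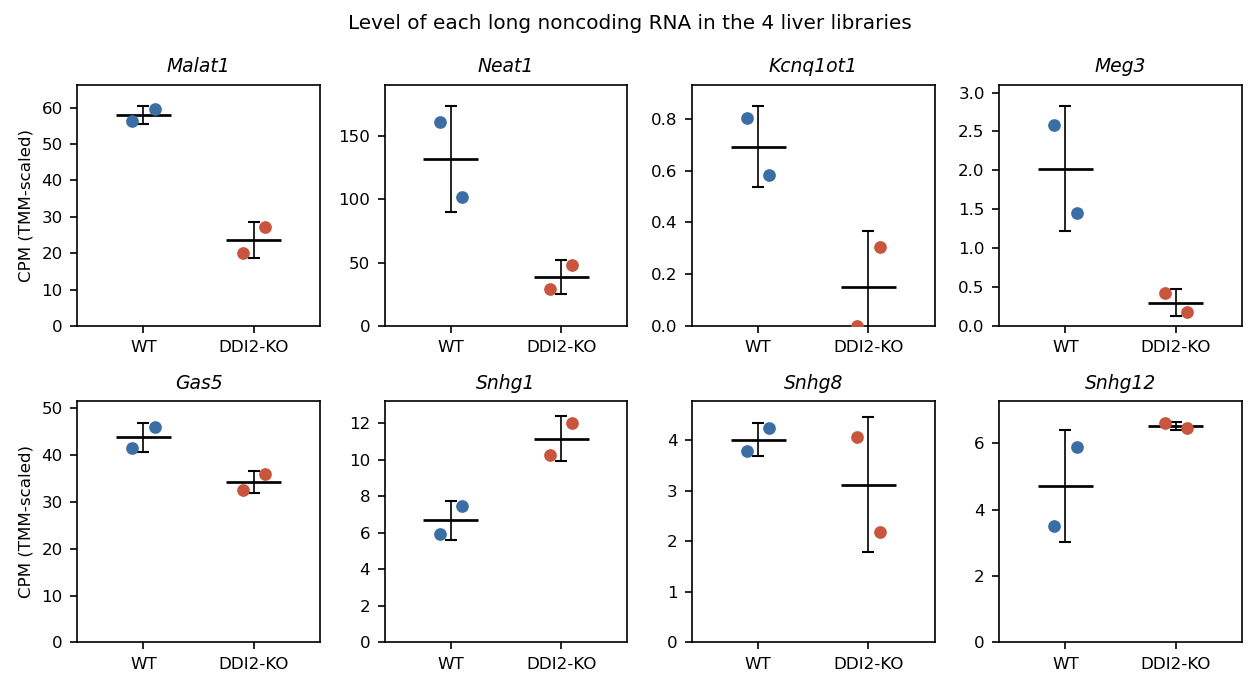
Level of each of the 8 RNAs in CPM (y axes, linear from 0, a scale of its own for each gene) in the 2 WT and 2 DDI2-KO libraries (points), with the group mean (line) and SD (bars, n = 2). Malat1, Neat1, Kcnq1ot1, Meg3 and Gas5 have both DDI2-KO points below both WT points, Snhg1 and Snhg12 have them above, and those of Snhg8 overlap.

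The imprinted RNAs had few reads in liver. Meg3 (ENSMUSG00000021268, chromosome 12, 109541001 to 109571726, plus strand) is the maternally expressed RNA of the Dlk1-Dio3 domain. It had 87 and 45 reads in WT against 11 and 4 in DDI2-KO, or 2.59 and 1.46 against 0.425 and 0.174 CPM. Every WT value was above every value of the DDI2-KO libraries, and the mean in DDI2-KO was 14.8% of the WT mean (2.02 ± 0.800 CPM, SD, n = 2).

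Meg3 fell by 2.72 on the log2 scale, with a standard error of 0.53 and an adjusted p of 0.0438. The test was the quasi-likelihood test of edgeR, and p-values were adjusted by Benjamini-Hochberg over all genes tested. It was the only call among the 6 members tested, so 1 was lower and 0 higher, beside 1.20% of all tested genes called lower and 1.33% called higher. The Meg3 call rested on few reads and was lost in 6 of 15 alternatives, namely limma-voom (adjusted p = 0.0706), limma-trend (0.0607), edgeR without robust estimation (0.0581), and edgeR without WT replicate 1 (0.172), without DDI2-KO replicate 1 (0.0508) and without DDI2-KO replicate 2 (0.0716). On the opposite strand, Gm26906 shares 1228 exon bases with Meg3 and had 0 reads in every library.

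Kcnq1ot1 (ENSMUSG00000101609, chromosome 7, 143203458 to 143296549, minus strand) is transcribed from the paternal allele across the middle of Kcnq1 and is annotated as 1 exon of 93092 bases. It had 27 and 18 reads in WT against 0 and 7 in DDI2-KO. Both WT libraries (0.803 and 0.583 CPM) lay above both DDI2-KO libraries (0 and 0.305 CPM). Against the WT mean, DDI2-KO replicate 1 was at least 5.98-fold lower, taking 3 counts in that library (0.116 CPM) as its limit. The log2 FC over all libraries was -2.22 with a standard error of 0.90 (edgeR adjusted p = 0.193), so it did not pass the threshold. Kcnq1, the potassium channel gene on the opposite strand with which it shares 121 exon bases, had 81 and 89 reads in WT against 76 and 51 in DDI2-KO, with a log2 FC of -0.03 (edgeR adjusted p = 0.960).

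Other genes of the Dlk1-Dio3 and Kcnq1 imprinted domains formed a list of 15, of which 8 were tested and 0 called. At an unadjusted p under 0.05 there was 1, DESeq2 and limma-voom also called 0, and 3 were lower and 5 higher with a median log2 FC of 0.17, against -0.015 over all genes. Of all tested genes, edgeR called 2.53%, and 2905 of 12719 protein-coding genes had an unadjusted p under 0.05. The listed gene with the lowest p was Rian, another maternally expressed RNA downstream of Meg3. It had 57 and 28 reads in WT against 5 and 12 in DDI2-KO and a log2 FC of -1.88 (edgeR adjusted p = 0.106). Dlk1, the nearest protein-coding gene before Meg3, had 2 reads in 1 library and 0 in the others, and Rtl1 after it had 0 in every library. Cdkn1c, a cell-cycle inhibitor of the Kcnq1 domain, had a log2 FC of -0.61 (edgeR adjusted p = 0.286).

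The snoRNA hosts were mixed in direction. Gas5 was lower, Snhg1 and Snhg12 were higher, and Snhg8 overlapped between genotypes, but 0 of these 4 passed an adjusted p of 0.05 in the edgeR test. At an unadjusted p under 0.05 there was 1, Snhg1, in the direction opposite to Malat1, and DESeq2, limma-voom and limma-trend called 0 of the 4. Of all tested genes, 2.53% were called in either direction. Both DDI2-KO libraries lay below both WT libraries for 27.7% and above them for 28.0%, 55.7% together. An unadjusted p under 0.05 from edgeR was found for 2905 of 12719 protein-coding genes and 235 of the 706 long noncoding genes outside the members.

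The first bases of the hosts are shown because transcripts of 5′TOP genes begin with a run of C and T. Each line gives 15 bases before the start site and 30 from it on, from RefSeq on GRCm38.p6, with the run of C or T that holds the start base in capitals.
Gas5, the downstream of 2 start sites, chr1:161035151-161035195, plus strand: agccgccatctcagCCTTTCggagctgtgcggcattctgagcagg
Snhg1, chr19:8723472-8723516, plus strand: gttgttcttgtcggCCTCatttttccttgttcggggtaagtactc
Snhg8, chr3:123508307-123508351, minus strand: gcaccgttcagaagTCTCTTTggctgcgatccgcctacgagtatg
Snhg12, chr4:132308663-132308707, plus strand: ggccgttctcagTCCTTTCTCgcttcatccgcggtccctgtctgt
Malat1, for comparison, chr19:5802643-5802687, minus strand: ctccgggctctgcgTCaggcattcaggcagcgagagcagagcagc
The runs were 6 bases long for this start of Gas5, 4 for Snhg1, 7 for Snhg8 and 9 for Snhg12, against 2 for Malat1 and 0 for Kcnq1ot1, both starts of Meg3 and the upstream start of Gas5. These lengths take in any C or T just before the start site, so they are not the lengths of the transcribed tract. Counted in the same way, a run of at least 5 was found at 10.1% of 32841 RefSeq start sites. Neat1 was not matched in the start-site table.

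Gas5 (ENSMUSG00000053332, chromosome 1, 161034422 to 161038539, plus strand), a host of box C/D snoRNAs whose own RNA builds up when growth stops, was the most abundant host. It had 1399 and 1421 reads in WT against 842 and 825 in DDI2-KO, or 41.6 and 46.0 against 32.5 and 35.9 CPM. Replicates were close, at 43.8 ± 3.10 and 34.2 ± 2.38 CPM (SD, n = 2 per group), and the groups did not overlap. The log2 FC was -0.36 with a standard error of 0.16 (edgeR adjusted p = 0.219), and none of its 15 alternatives gave an adjusted p under 0.05. In DDI2-KO, Gas5 thus stood at 78.1% of WT, against 40.8% for Malat1.

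Snhg1 (ENSMUSG00000108414, chromosome 19, 8723475 to 8726443, plus strand), another host of box C/D snoRNAs, went the other way. It had 199 and 230 reads in WT against 266 and 276 in DDI2-KO, although the latter were sequenced less deeply, or 5.92 and 7.44 against 10.3 and 12.0 CPM. Both DDI2-KO libraries lay above both WT libraries (11.1 ± 1.23 against 6.68 ± 1.08 CPM, SD, n = 2 per group), a mean 1.67-fold higher. The log2 FC was 0.74 with a standard error of 0.21 (edgeR adjusted p = 0.0952). With offsets for GC content and length it was 0.85 and with no filter on low counts 0.75, and these were the alternatives that passed, with adjusted p of 0.0425 and 0.0287 from edgeR.

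Snhg12 (ENSMUSG00000086290, chromosome 4, 132308623 to 132311024, plus strand) hosts box H/ACA snoRNAs and Snord99. It had 118 and 182 reads in WT against 171 and 148 in DDI2-KO, or 3.51 and 5.89 against 6.61 and 6.44 CPM. The groups did not overlap, but the WT libraries differed by 1.68 times, more than the 1.39-fold difference of the means. The log2 FC was 0.47 with a standard error of 0.28 (edgeR adjusted p = 0.344).

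Snhg8 (ENSMUSG00000104960, chromosome 3, 123507552 to 123508404, minus strand) hosts Snora24. It had 127 and 131 reads in WT against 105 and 50 in DDI2-KO, or 3.78 and 4.24 against 4.06 and 2.18 CPM. DDI2-KO replicate 1 lay between the WT libraries and only DDI2-KO replicate 2 was below them. The log2 FC was -0.36 with a standard error of 0.33 (edgeR adjusted p = 0.553), and without DDI2-KO replicate 2 it turned to 0.027.

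**Figure D2:**
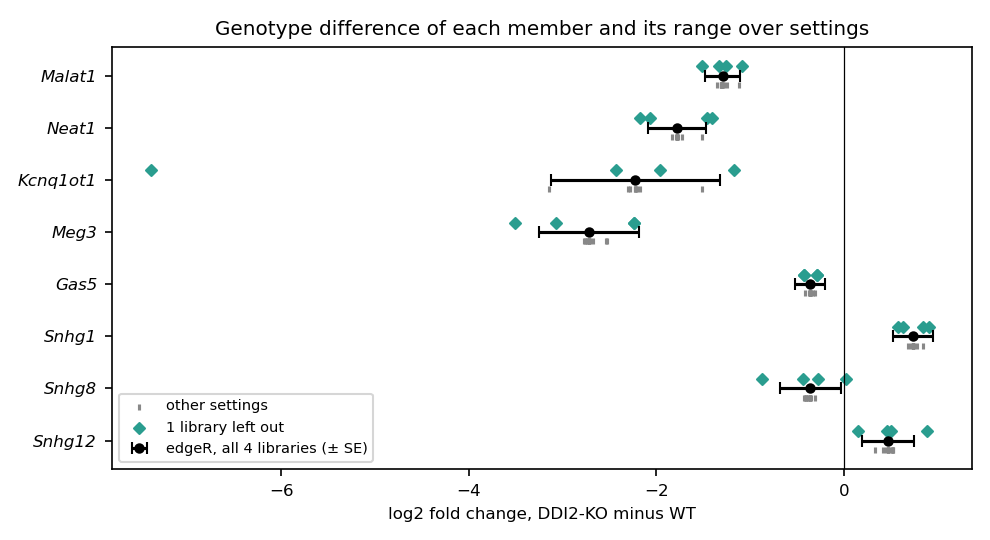
Log2 fold change of each RNA, DDI2-KO minus WT (x axis), from edgeR with all 4 libraries (black point, bar ± SE), with 1 library left out (diamonds) and under the other settings (grey ticks). Malat1, Neat1, Kcnq1ot1 and Meg3 lie below 0 at every setting, the hosts lie within 1 of 0, Snhg8 crosses it, and the far diamond of Kcnq1ot1 (-7.39) is the fit in which its remaining DDI2-KO library had 0 reads.

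Ratios within a library need no scaling between libraries. Malat1 and Neat1 together had 3.96 and 2.54 reads for each read on the 4 hosts in WT, and 0.918 and 1.33 in DDI2-KO. The 4 hosts summed to 54.8 and 63.6 CPM in WT and 53.5 and 56.5 CPM in DDI2-KO, which overlap, while Malat1 and Neat1 summed to 217 and 162 against 49.1 and 75.1 CPM. Against Gas5 alone, there were 135 and 130 Malat1 reads per 100 Gas5 reads in WT against 62.0 and 75.8 in DDI2-KO. Among the hosts, Snhg1 had 14.2 and 16.2 reads per 100 of Gas5 in WT against 31.6 and 33.5 in DDI2-KO. Snhg12 had 8.43 and 12.8 per 100 of Gas5 against 20.3 and 17.9, so neither of these ratios overlapped between genotypes. Snhg8 had 9.08 and 9.22 per 100 of Gas5 against 12.5 and 6.06, and Snhg12 had 59.3 and 79.1 per 100 of Snhg1 against 64.3 and 53.6, both of which overlapped. These ratios were not tested.

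Levels between genes were set side by side per kilobase of exon. The divisor was all annotated exon bases of a gene, 20771 for Neat1, whose 4 annotated transcripts were not separated. In WT, Gas5 had 11.6 CPM per kilobase, Malat1 8.30, Neat1 6.33, Snhg8 4.70, Snhg1 2.25, Snhg12 1.96, Meg3 0.112 and Kcnq1ot1 0.00744. Of neighbours in this order, Malat1 and Neat1, Neat1 and Snhg8, and Snhg1 and Snhg12 did not differ beyond their spread. In DDI2-KO the order was Gas5 at 9.10, Snhg1 at 3.75, Snhg8 at 3.65, Malat1 at 3.39, Snhg12 at 2.72, Neat1 at 1.85, Meg3 at 0.0166 and Kcnq1ot1 at 0.00164 CPM per kilobase, and the values of Snhg1, Snhg8 and Malat1 overlapped. By the mean of this level over all 4 libraries, Gas5 ranked 25 and Malat1 41 among the 714 long noncoding genes tested. Meg3 ranked 702 and Kcnq1ot1 714.

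The annotation places 10 snoRNA gene entries inside Gas5, 8 inside Snhg1, 5 inside Snhg12 and 1 inside Snhg8, and all of them had 0 reads in every library. Snord80 in Gas5 and Snora16a in Snhg12 each have more than 1 entry at nearly the same place. snoRNAs lack the tail that mRNA libraries select. They lie within annotated exons of their hosts, where the counting program can set a read aside as ambiguous. Summed over entries, the shared bases were 746 in Gas5, 622 in Snhg1, 606 in Snhg12 and 130 in Snhg8. Bases of the repeated entries in Gas5 and Snhg12 are counted more than once in these sums. The host counts therefore say nothing of the snoRNA levels. Of 50-base stretches, between 5.21% (Gas5) and 10.6% (Snhg12) of those of the hosts also occur in transcripts of other genes, their own snoRNAs among them, as do 6.24% of those of Malat1 and 1.33% of those of Neat1.

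Another 17 host genes, 13 of them in the files and 11 tested, were as mixed in direction as the 4. Of these, 0 were called by edgeR, 1 had an unadjusted p under 0.05, and DESeq2 and limma-voom called 0. Of all tested genes, edgeR called 2.53%, so 0 of 11 does not set these hosts apart. An unadjusted p under 0.05 was found for 235 of the 706 long noncoding genes outside the members. Among the 11 tested hosts, 5 were lower and 6 higher, with a median log2 FC of 0.063. The summed level of those in the files was 41.1 to 50.6 CPM in WT and 48.0 to 50.3 CPM in DDI2-KO. Snhg11 had the lowest p, with 25 and 33 reads in WT against 53 and 69 in DDI2-KO and a log2 FC of 1.48 (standard error 0.37, edgeR adjusted p = 0.0729). The most abundant of them by CPM, Snhg17, differed little, with 439 and 477 reads in WT against 344 and 339 in DDI2-KO and a log2 FC of -0.02. Zfas1, a host expressed in many tissues, had 196 and 209 reads in WT against 218 and 134 in DDI2-KO.

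Other nuclear or chromatin-bound long noncoding RNAs were also listed. Of 11 in the files, Rian among them, 7 were tested and all 7 were lower, with a median log2 FC of -0.99. In this list 1 was called lower, beside 1.20% of all tested genes. Tug1, a long noncoding RNA that binds chromatin regulators, had 1444 and 1142 reads in WT against 438 and 532 in DDI2-KO (40.0 ± 4.23 against 20.0 ± 4.40 CPM, SD, n = 2 per group). It fell by 1.00 on the log2 scale with a standard error of 0.20 (edgeR adjusted p = 0.0452), a call held in 8 of 15 alternatives. Xist, which coats the inactive X chromosome, had the lowest log2 FC of the list, -2.23, with 17484 and 11533 reads in WT against 1230 and 3288 in DDI2-KO, and did not pass (edgeR adjusted p = 0.120). Firre, which also acts in nuclear organisation, had 1041 and 1129 reads in WT against 375 and 630 in DDI2-KO (log2 FC -0.69, edgeR adjusted p = 0.211). The study used mice of both sexes, the labels do not give the sex, and its part in the values of this list was not tested.

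The same direction was seen over the annotated class without the 8 members. The other 706 long noncoding genes tested had a median log2 FC of -0.55, with 549 lower and 157 higher, against 0.0065 for the 12719 protein-coding genes, with 6288 lower and 6431 higher. Of these long noncoding genes, 35 were called lower (4.96%) and 3 higher (0.425%), and of the protein-coding genes 115 (0.904%) and 177 (1.39%). The comparison of classes was chosen after the data had been seen and is a description. With GC and length offsets and the members included, the medians were -0.58 and 0.016, and over every setting run that of the long noncoding genes stayed between -0.84 and -0.48.

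Within the class, level and length went along with the size of the difference. The 42 others whose mean level reached 10 CPM had a median of only -0.12, with 28 lower and 14 higher, and 7 of them were called lower. The 10 others with a transcript at least as long as that of Malat1 were all lower, with a median of -1.24. However, 0 of them were called by edgeR, DESeq2 called 3 and limma-voom 0. An unadjusted p under 0.05 was found for 9 of them, and for 235 of all 706 others. Protein-coding genes of that length had a median of -0.18 with 785 lower and 372 higher, against 0.026 for the shorter ones. By log2 FC, Gas5 and Snhg8 lay above the median of the long noncoding class although below that of all genes, and Snhg1 was higher than 94.9% of all tested genes.

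**Figure D3:**
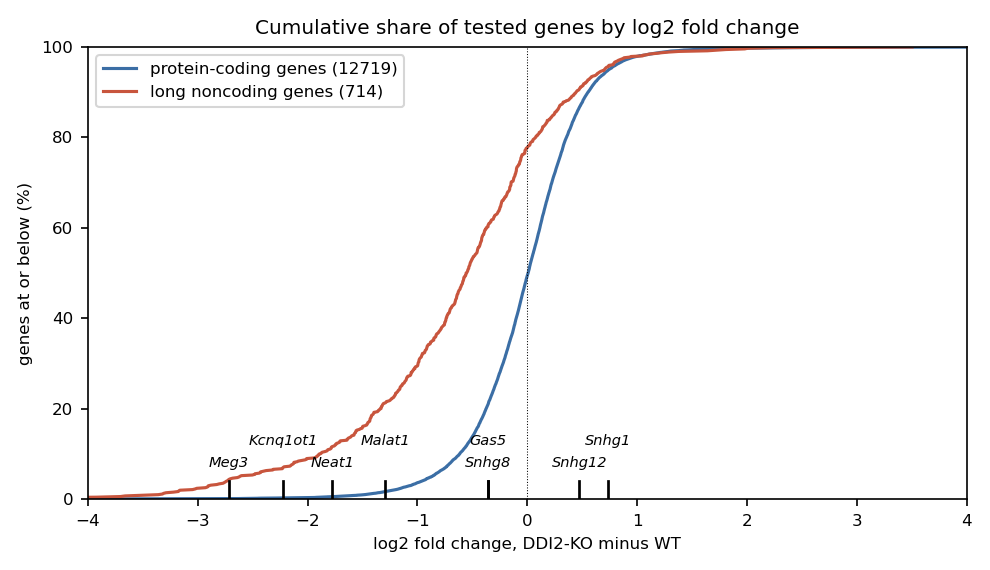
Cumulative share of tested genes (y axis, percent) at or below each log2 FC, DDI2-KO minus WT (x axis, shown from -4 to 4), for 714 long noncoding and 12719 protein-coding genes, with the 8 RNAs marked on the x axis. The long noncoding curve lies to the left of the protein-coding curve below 0, and the medians are -0.55 and 0.0065.

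The proteins that form the nuclear bodies of these RNAs were examined next. Of 10 nuclear speckle core proteins, 1 was called lower, 9 were lower and 1 higher, and the median log2 FC was -0.35. Pnn, a speckle protein tied to the exon junction complex, had 946 and 834 reads in WT against 244 and 250 in DDI2-KO (27.6 ± 0.809 against 10.2 ± 1.03 CPM, SD, n = 2 per group). It fell by 1.44 on the log2 scale with a standard error of 0.17 (edgeR adjusted p = 0.0166) and passed in 15 of 15 alternatives. Of 12 paraspeckle proteins, 0 were called by edgeR, DESeq2 called 1 and limma-voom 0, and 8 were lower and 4 higher with a median of -0.36. An unadjusted p under 0.05 was found for 5 of the 12, and for 2905 of 12719 protein-coding genes. Of all tested genes, 1.20% were called lower by edgeR. Hnrnph3, a paraspeckle hnRNP, had the lowest p, with 520 and 412 reads in WT against 225 and 180 in DDI2-KO and a log2 FC of -0.80 (edgeR adjusted p = 0.0668).

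Some mRNAs of liver are known to be held in the nucleus, and 3 were listed. All 3 were lower in both DDI2-KO libraries than in both WT libraries, as were 27.7% of all tested genes. Counts per gene do not separate nuclear from cytoplasmic RNA. Slc7a2, a cationic amino acid transporter gene with a form kept in paraspeckles, had 14625 and 15764 reads in WT against 5362 and 5037 in DDI2-KO (473 ± 53.2 against 213 ± 8.51 CPM, SD, n = 2 per group). It fell by 1.15 on the log2 scale with a standard error of 0.18 (edgeR adjusted p = 0.0295), a call held in 13 of 15 alternatives. Mlxipl, which encodes the glucose-responsive factor ChREBP, had a log2 FC of -0.59 (edgeR adjusted p = 0.100), and Nlrp6 one of -0.39 (edgeR adjusted p = 0.219).

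Genes that make or break down these RNAs were counted as well. Of all tested genes, 2.53% were called by edgeR, and 2905 of 12719 protein-coding genes had an unadjusted p under 0.05. Of 12 tested genes of RNase P and other 3′ end processing of Malat1 and Neat1, 0 were called by edgeR, DESeq2 or limma-voom, 2 had an unadjusted p under 0.05, and the median was 0.091. Rpp14, an RNase P subunit gene, had the lowest p, with 297 and 364 reads in WT against 444 and 382 in DDI2-KO and a log2 FC of 0.71 (edgeR adjusted p = 0.0902). Of 16 tested genes of the nuclear exosome and its cofactors, 0 were called by edgeR, 3 had an unadjusted p under 0.05, DESeq2 called 2 and limma-voom 0, with a median of 0.14. C1d, an exosome cofactor, had a log2 FC of 0.70 (edgeR adjusted p = 0.0665).

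Of 18 genes of nonsense-mediated decay, the pathway that degrades spliced host RNAs, 0 were called by edgeR, 8 had an unadjusted p under 0.05, DESeq2 called 1 and limma-voom 0. Among them 13 were lower and 5 higher, with a median log2 FC of -0.16. An unadjusted p under 0.05 was found for 2905 of 12719 protein-coding genes. Upf3b, which links exon junctions to the decay machinery, had 316 and 299 reads in WT against 109 and 126 in DDI2-KO and a log2 FC of -0.98 (edgeR adjusted p = 0.0593).

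The partners of the hosts were counted in the same way. Of all 13699 genes tested, 6672 were higher and 1.33% were called higher, and 2905 of 12719 protein-coding genes had an unadjusted p under 0.05. Of 15 snoRNP proteins and assembly factors, 12 were higher and 3 lower with a median log2 FC of 0.22, 0 were called by edgeR, DESeq2 or limma-voom, and 3 had an unadjusted p under 0.05. Znhit3, a factor for assembly of box C/D particles, had the lowest p, with a log2 FC of 0.79 (edgeR adjusted p = 0.118). Of 18 mRNAs with a 5′TOP other than those of ribosomal proteins, 13 were higher and 5 lower with a median of 0.19, and 1 was called. Eif3f, a subunit gene of an initiation factor, rose from 1634 and 1472 reads in WT to 2179 and 2007 in DDI2-KO, with a log2 FC of 0.83 (standard error 0.15, edgeR adjusted p = 0.0404), a call held in 10 of 15 alternatives.

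**Figure D4:**
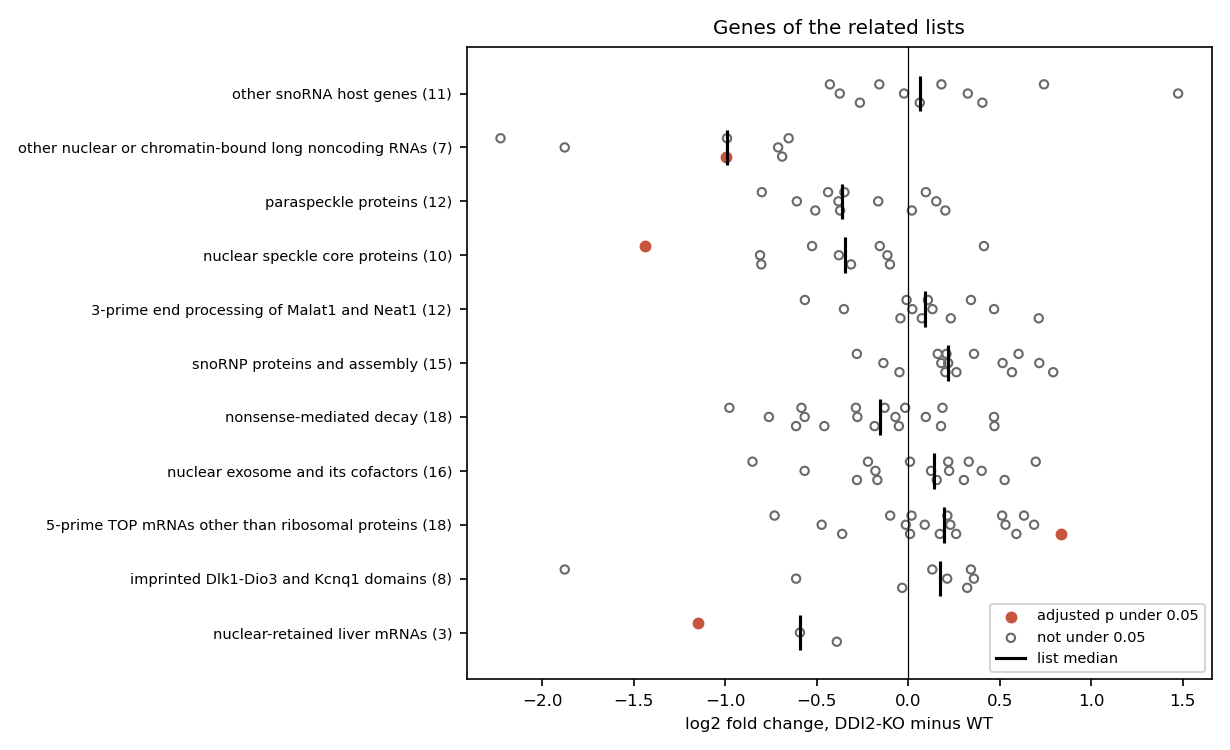
Log2 fold change of every tested gene of the related lists, DDI2-KO minus WT (x axis), 1 list per line with its number of tested genes, filled where the adjusted p was under 0.05, with the list median as a black bar. Medians run from -0.99 for other nuclear long noncoding RNAs to 0.22 for snoRNP proteins, and the filled points are Tug1, Pnn, Eif3f and Slc7a2.

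Neighbouring genes did not all share the direction of the members. Frmd8, 4224 bases from Neat1, had 265 and 202 reads in WT against 387 and 268 in DDI2-KO, with a log2 FC of 0.88 (edgeR adjusted p = 0.0688). Slc3a2, whose start is 106 bases from that of Snhg1, had a log2 FC of 0.06 (edgeR adjusted p = 0.868). Trnau1ap, 739 bases from Snhg12, had a log2 FC of 0.76 (edgeR adjusted p = 0.0570). Zbtb37, which overlaps Gas5 on the other strand without sharing exon bases, was at -0.79 (edgeR adjusted p = 0.0969).

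By distance of log2 CPM over the 4 libraries, each centred on its own mean, the genes most like Malat1 among 7379 with a mean of at least 10 CPM were Luc7l2 (0.172), C8a (0.218) and Pnn (0.218). Luc7l2 had 3411 and 2949 reads in WT against 810 and 989 in DDI2-KO, a mean 2.65-fold lower. Those most like Neat1 were Pnisr (0.265), Cyp4a14 (0.505) and AI480526 (0.542), the last a long noncoding RNA gene. Pnisr had 1792 and 1314 reads in WT against 275 and 368 in DDI2-KO. Those most like Gas5, Ncoa2 (0.0249), Brd9 (0.0265) and Senp6 (0.0316), lay nearer to it. The distance was not scaled for the size of the differences, which were smaller for Gas5, so the distances do not compare how well patterns are shared.

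In the 300 bases around each RefSeq start, 250 before and 50 after, both strands were searched for TGACNNNGC, the core of the antioxidant response element that NRF1 and NRF2 bind. It was found at Kcnq1ot1 and Snhg8, and at 12.4% of 32841 such windows. Of the metal response element core, the form TGCACNC was found at none of the 7 members matched (12.6% of windows) and TGCGCNC at the upstream starts of Meg3 and Gas5 and at Snhg8 (15.4%).

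Marker genes of other liver cells were summed by list. Their summed level was 605 to 707 CPM in WT and 722 to 848 in DDI2-KO for 7 Kupffer cell genes, 448 to 510 and 444 to 457 for 7 sinusoidal endothelial genes, 461 to 489 and 430 to 450 for 7 stellate cell genes, and 53.1 to 56.7 and 69.1 to 70.8 for 6 biliary genes. For 5 lymphocyte genes it was 25.8 to 26.3 and 18.7 to 21.1 CPM, and for 5 erythroid genes 109 to 210 and 68.3 to 79.3 CPM. The genes called in these lists were Stab2, a scavenger receptor of sinusoidal endothelium (log2 FC -1.10, edgeR adjusted p = 0.0288), and Hba-a1, an alpha globin gene (-1.94, edgeR adjusted p = 0.0338). Of all tested genes, 2.53% were called in either direction. The 7 sinusoidal endothelial genes were mixed, 4 lower and 3 higher, with a median log2 FC of -0.04. All 5 erythroid genes were lower, with a median of -1.14. No marker in these lists was at 0 in every library, and the part of these cells in the values of Malat1, Neat1, Meg3 and Kcnq1ot1 was not tested.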

How the data were processed

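Liver RNA of 2 WT and 2 DDI2-KO mice was measured by stranded mRNA sequencing. The authors deposited 1 table of raw counts per library, with whole reads for each Ensembl gene and no scaling. By the submitters' processing notes, cutadapt 1.8, STAR 2.5.2b and HTSeq 0.6.1 were used on GRCm38. The counting mode, strand setting and annotation release are not given in the sources used here. The 5 summary lines of each file were not taken as genes. Symbols and positions came from GENCODE M21 (GRCm38), which held 48349 of 48709 identifiers, and start sequences from RefSeq (GRCm38.p6), in which 7 of 8 members were matched.

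Counts were scaled by TMM, filtered by filterByExpr and tested with edgeR 4.0.16 (glmQLFit with robust estimation, glmQLFTest) in R 4.3.3, with all 4 libraries, no covariate and Benjamini-Hochberg adjustment over 13699 genes. A call is an adjusted p under 0.05. Standard errors were taken as the absolute log2 fold change over the root of the F statistic. Levels are CPM of the TMM-scaled library. Both libraries of a group were kept as separate samples, since their counts differed beyond sampling noise (chi-square over degrees of freedom 64.7 in WT and 34.7 in DDI2-KO). The fits were tested on simulated data.

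The members and gene lists were chosen with earlier results of these data known. Genes named are the members, small RNA genes inside them, their nearest protein-coding genes (some are not reported here), the called genes of each list or else the one with the lowest p, and the 3 genes most like Malat1, Neat1 and Gas5 by Euclidean distance of centred log2(CPM + 0.5). Further genes of the lists (Zfas1, Snhg17, Xist, Firre, Mlxipl, Nlrp6) were named after their values were seen, as were the comparison by annotation class and the sequence motifs. Alternatives were RLE, upper-quartile and library-total scaling, GC and length offsets, DESeq2 1.42.0, limma 3.58.1 (voom and trend, since the study names a moderated limma test without saying which), no robust estimation, other filters, a replicate block, and leaving out each library.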

Additional observations from a re-analysis of the deposited data

Results flagged for a closer look

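Reads that overlapped more than 1 gene, which the counting program sets aside and which enter no comparison, were more frequent in DDI2-KO. They came to 3.49 per 100 reads on genes in DDI2-KO replicate 1 and 3.66 in DDI2-KO replicate 2, above the WT libraries, of which the higher had 2.54. Host exons that contain snoRNA genes are among the places where such reads arise, and which genes they came from was not tested. With 2 libraries per group, no search for a sample far from its group was made.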

How the results depend on the processing

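There were 2 libraries per group and few reads on Meg3 and Kcnq1ot1, which limits the precision. Against 164 genes lower and 182 higher, the calls were 366 and 463 with GC and length offsets, 424 and 508 in DESeq2, 64 and 72 in limma-voom, 65 and 74 in limma-trend, 77 and 75 without robust estimation and 752 and 792 with no filter. Upper-quartile scaling gave 191 and 126 and library totals only 148 and 230, so that 39.7% and 60.8% of calls were higher against 52.6%. With libraries left out in turn the calls ranged from 78 (without WT replicate 1) to 337 (without DDI2-KO replicate 2) lower and from 75 to 294 higher, with 76 higher without WT replicate 2, and a lone library is assumed to vary like the other group. Among the 6 members tested, 0 were called lower in limma-voom (Meg3 -2.72), limma-trend (-2.53) and edgeR without robust estimation (-2.72), and 1 higher with the offsets (Snhg1 0.85) and with no filter (Snhg1 0.75); the causes were not tested. Leaving out libraries gave 0 to 1 lower, and ranges of -1.51 to -1.09 for Malat1, -2.17 to -1.41 for Neat1, -3.51 to -2.23 for Meg3, -0.42 to -0.28 for Gas5, 0.58 to 0.91 for Snhg1, 0.15 to 0.89 for Snhg12 and -0.88 to 0.027 for Snhg8. The last value, a reversal, was without DDI2-KO replicate 2. Kcnq1ot1 ranged from -7.39 to -1.17, and the former, without DDI2-KO replicate 2, passed (adjusted p = 0.0484 from edgeR) but depends on the prior count. DESeq2 gave Kcnq1ot1 no adjusted p, and at a mean of at least 1 CPM it was not tested. The listed genes called varied from 0 to 3 for other nuclear long noncoding RNAs and 5′TOP mRNAs, 1 to 3 for speckle proteins, 0 to 2 for decay, exosome and nuclear-retained genes and 0 to 1 for other hosts, paraspeckle, 3′ end and imprinted genes, and stayed at 0 for snoRNP genes.

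Replicate numbers did not pair the samples, since deviations of same-numbered libraries had a correlation of 0.059 over 13699 genes. With a replicate block, 555 genes were lower and 553 higher, Malat1 was at -1.31, Neat1 at -1.78 and Meg3 at -2.76 (adjusted p = 0.00265 from edgeR), and the other members kept their side of the threshold.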

Other observations

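Long noncoding genes outside the members were also called, 35 of 706 lower and 3 higher. The most abundant of those lower were BC024386, with 7912 and 7191 reads in WT against 2652 and 3075 in DDI2-KO (log2 FC -0.99, edgeR adjusted p = 0.0438), and 0610005C13Rik, an antisense gene with 5241 and 5298 against 2359 and 1903 (log2 FC -0.91, edgeR adjusted p = 0.0404). Hectd2os, also antisense, had 4060 and 1805 reads against 436 and 439, with a log2 FC of -2.32 (edgeR adjusted p = 0.0406) and a WT spread of 89.6 ± 44.1 CPM (SD, n = 2). The 3 higher were C4a (97 and 74 reads against 330 and 186, log2 FC 1.98, edgeR adjusted p = 0.0209), Gm35986 (46 and 48 against 91 and 94) and Gm28548 (1 and 6 against 36 and 27). C4a is a close copy of the complement gene C4b, and reads mapped to more than 1 place were not counted for any gene. It is in this class because it is annotated as a processed transcript. The adjusted p was under 0.05 in 9 of 15 alternatives for BC024386, 10 for 0610005C13Rik, 12 for Hectd2os, 15 for C4a, 6 for Gm35986 and 8 of 14 for Gm28548. These genes were chosen after their values were seen.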
